A study of Rattus norvegicus with 16 samples.

Results

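The genes described here are the hepatic genes read as targets of CAR and PXR, together with both receptors: Cyp2b2, Cyp3a23-3a1, Cyp3a2, Cyp3a9, Cyp3a18, Por, Nr1i2 (PXR), Nr1i3 (CAR), Abcb1b and Abcc2. They were found by matching the accession of every array probe to RefSeq gene symbols, which gave 13 probes for the 10 genes among 30367 probes (15168 genes with a symbol), with a pair of probes each for Cyp2b2, Nr1i3 and Abcb1b. All 13 passed the filter on dim signals and were among the 12140 probes tested. The question was whether induction by an organochlorine mixture given to the mother was still visible in the livers of her adult sons.

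All livers came from male Sprague-Dawley rats aged 78 to 86 days, with 8 rats per group pooled in pairs into 4 arrays. In MM, the dams had received the mixture (organochlorine pesticides, polychlorinated biphenyls and methyl mercury in corn oil) at 1 mg/kg/day from the start of gestation until postnatal day 20, and pups were cross-fostered so that they met the mixture both in utero and in the milk of another exposed dam. M had the same dose, with pups left with their birth mothers. CC pups were cross-fostered between dams given corn oil alone, and C pups stayed with birth mothers given corn oil alone. One free-text field calls the M arrays a control, whereas their titles and treatment fields give the exposure, and they were taken as exposed. Each array measures a pool of 2 animals, so that p-values describe the spread between pools, and litter mates were not told apart from unrelated pups.

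CAR (the constitutive androstane receptor) and PXR (the pregnane X receptor) are nuclear receptors that sense foreign chemicals in hepatocytes. On activation they pair with a retinoid X receptor, bind repeats of a short hexamer near their target genes, and raise enzymes and transporters that oxidise, conjugate and export the chemical. Non-coplanar polychlorinated biphenyls and several organochlorine pesticides are known rat liver inducers of the phenobarbital type, for which Cyp2b and Cyp3a are the usual readout.

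RefSeq promoters (250 bases before to 50 bases after the gene's start, assembly GRCr8) were at hand for all 10 genes, and 3 are printed. Those of Cyp3a23-3a1 and Cyp3a2 show the element by which PXR and CAR are known to reach the Cyp3a genes. The Cyp2b2 window does not hold it. Capitals mark a direct repeat of AGTTCA with a 3-base spacer, read on the printed strand as TGAACTNNNTGAACT.
Cyp3a23-3a1 (chr12:14398754-14399053, minus strand): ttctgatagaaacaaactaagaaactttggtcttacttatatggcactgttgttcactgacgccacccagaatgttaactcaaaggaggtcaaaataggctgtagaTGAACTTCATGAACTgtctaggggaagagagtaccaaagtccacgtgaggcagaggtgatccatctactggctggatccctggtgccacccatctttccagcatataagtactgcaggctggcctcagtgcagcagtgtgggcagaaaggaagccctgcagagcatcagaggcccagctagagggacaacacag
Cyp3a2 (chr12:14343808-14344107, minus strand): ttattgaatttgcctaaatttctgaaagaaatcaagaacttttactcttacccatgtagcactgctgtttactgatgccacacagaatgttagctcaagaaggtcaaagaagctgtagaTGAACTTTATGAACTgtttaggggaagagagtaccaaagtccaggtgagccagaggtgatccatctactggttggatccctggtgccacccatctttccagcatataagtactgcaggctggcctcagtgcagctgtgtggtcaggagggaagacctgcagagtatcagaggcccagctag
Cyp2b2 (chr1:90722031-90722330, plus strand): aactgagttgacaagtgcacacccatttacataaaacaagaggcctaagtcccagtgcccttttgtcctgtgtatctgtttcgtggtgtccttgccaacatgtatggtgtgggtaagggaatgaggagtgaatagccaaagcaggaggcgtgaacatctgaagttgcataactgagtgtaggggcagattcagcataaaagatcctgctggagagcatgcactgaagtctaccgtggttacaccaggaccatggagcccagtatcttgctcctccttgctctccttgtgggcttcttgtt

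The repeat lies at positions -144 to -130 of Cyp3a23-3a1 and -131 to -117 of Cyp3a2, counted from the start. Searched on both strands, it was in 2 of 33469 RefSeq rat promoters of this length (0.00598%), which were these 2. Allowing AGTTCA or AGGTCA in either place, 14 promoters (0.0418%) held a direct repeat with a 3-base spacer. None of the other 8 genes held such a repeat in the window, nor one with a 4-base spacer (6 promoters, 0.0179%), nor an everted repeat with a 6-base spacer (2 promoters, 0.00598%). The hexamer AGTTCA or AGGTCA, on either strand and whatever lay beside it, was in 27.9% of promoters. It occurred 4 times in Abcc2, 2 times in Cyp3a18 and once each in Cyp3a9, Por and Nr1i2. It was not found in Cyp2b2, Nr1i3 or Abcb1b. In Abcc2, TGAACT at -191 to -186 and AGTTCA at -177 to -172 pointed away from each other, at a spacing that was not searched. The phenobarbital-responsive element of the rat Cyp2b genes is known to lie further upstream than this window. The Cyp3a23-3a1 and Cyp3a2 promoters shared 251 of 281 aligned bases (89.3%). The promoter of Cyp2b2 shared 275 of 283 aligned bases (97.2%) with that of Cyp2b1, its close paralogue. No probe was assigned to Cyp2b1 by accession, and binding of its transcript to the Cyp2b2 probes was not tested.

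Each array compared Cy5-labelled liver RNA with a Cy3-labelled universal reference, a mix of RNA from 14 rat cell lines. Values are given as log2 liver signal, log2 reference signal, or log2 of liver over reference (the log ratio), and a probe was called at a limma adjusted p under 0.05 over all 12140 probes (Benjamini-Hochberg, two-sided). The liver signal was well above background for 35.0% to 41.9% of probes per array, and array pairs correlated at 0.941 to 0.985. All 10 hepatocyte markers, Alb among them, were well above background on every array, whereas of the lymphocyte markers Cd3d was so on 16 arrays, Cd79b on 1, and Cd3e and Cd8a on none. All C and CC arrays were on 1 slide and all M and MM arrays on the other, so exposure and slide cannot be told apart. The reference RNA was the same throughout, yet 61.3% of probes (7440) were called in its channel for the exposed groups against the unexposed ones. For that reason the liver channel is given beside every log ratio.

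In the liver channel, none of the 13 probes was called in any comparison of exposed with unexposed adults. For M minus C, 0 of 13 were called by limma (0.00824% of all probes, 1 probe), with differences from -0.37 to 0.59 and a median of 0.08 (all probes -0.01). For MM minus CC, 0 of 13 were called (0.0412%, 5 probes), with differences from -0.48 to 0.38 and a median of -0.04 (all probes -0.01). For the mean of both differences, called the mean exposure effect, 0 of 13 were called (1.37%, 166 probes), 7 lay above 0 and 6 below, and the median was 0.04 (all probes -0.01). At an unadjusted p under 0.05, limma gave 2, 2 and 4 of the 13 probes in these comparisons, against 8.23%, 6.56% and 12.5% of all probes. All 13 intervals (95%) of the mean exposure effect lay within 2-fold either way, the highest upper limit being 1.85-fold (Por) and the lowest lower limit 0.523-fold (Cyp3a9). For M minus C alone, 3 upper limits exceeded 2-fold (Cyp2b2 probe 1, Cyp3a2 and Por), and for MM minus CC none did. In pooled whole liver, fewer cells of a type and less RNA per cell cannot be told apart.

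**Figure D1:**
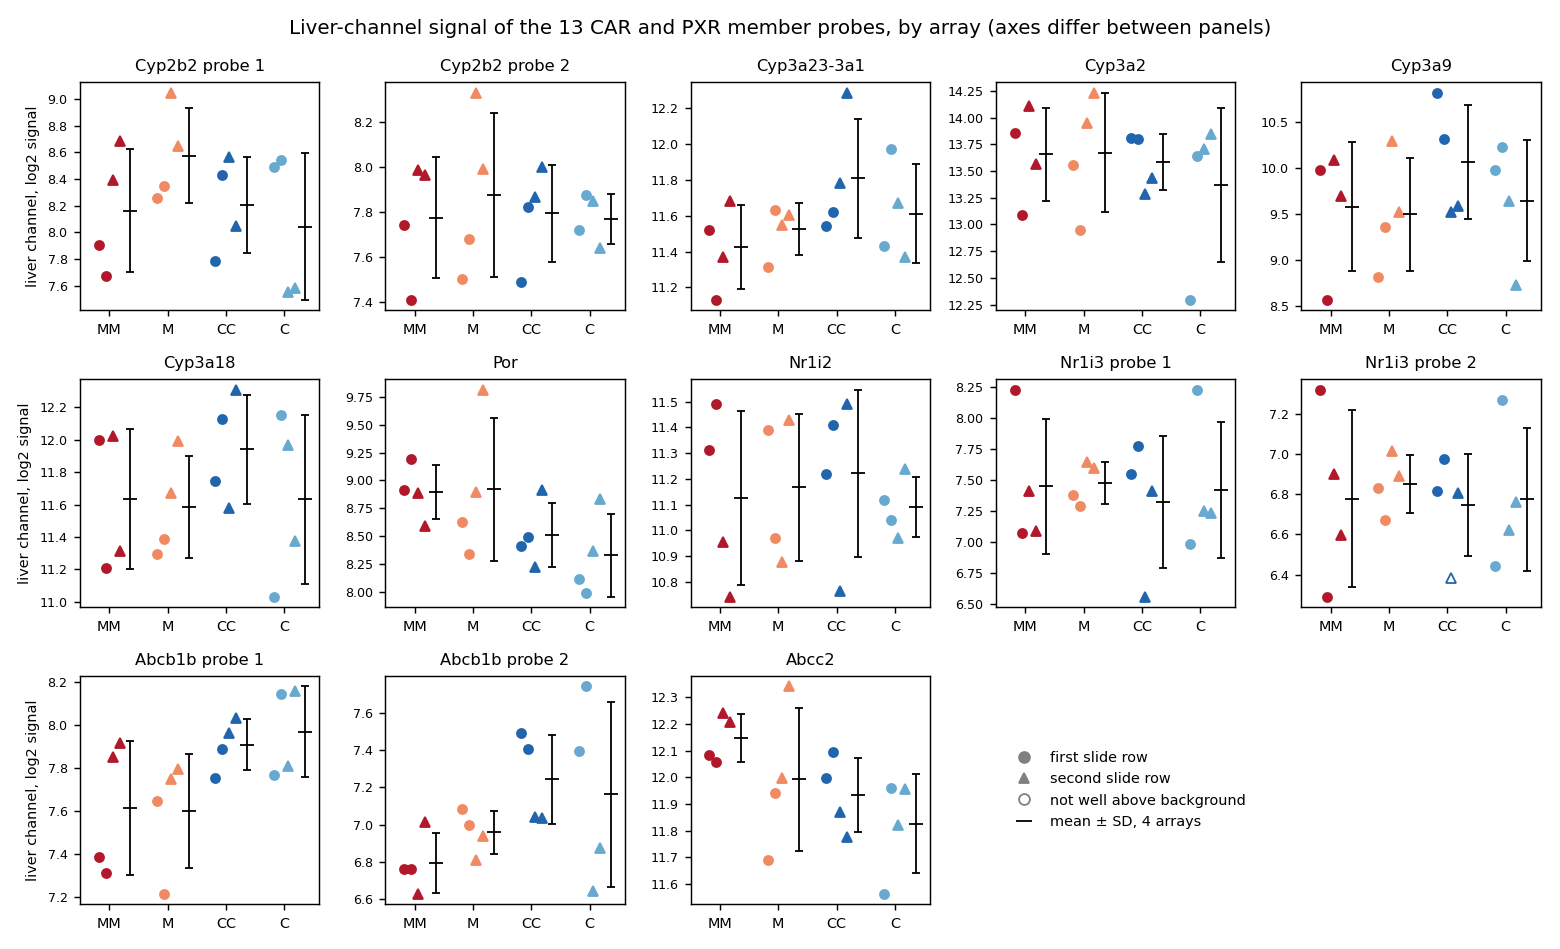
Log2 liver signal of each of the 13 probes (panels) on every array, by group (MM, M, CC, C), with the group mean and SD as a bar. Circles are arrays of the first slide row, triangles those of the second, and an open symbol is an array not well above background. M overlaps C in every panel, and MM overlaps CC in every panel except that of Abcb1b probe 2. The group means span less than the largest group SD in every panel except those of Cyp3a23-3a1, Abcb1b probe 1 and Abcc2.

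Across the 4 groups, the means of a probe spanned 0.11 to 0.59 in log2 liver signal. Ordered by level, 36 of 39 neighbouring group means lay within the larger of their SDs. The exceptions were M above CC for Cyp2b2 probe 1, MM above CC for Por, and M above MM for Abcb1b probe 2.

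Cyp2b2, the phenobarbital-inducible oxidase of rat liver and the classic readout of CAR, was not called in liver signal or log ratio in any comparison. Probe 1 had a log2 liver signal of 8.26, 8.34, 9.05 and 8.65 in M, against 8.49, 8.54, 7.55 and 7.58 in C. The C arrays split into a higher pair inside the M range and a lower pair beneath it, so that the groups overlapped. The difference was 0.53 ± 0.28 (SE), or 1.45-fold with a 95% interval of 0.956 to 2.19 (adjusted p = 0.664). In the cross-fostered groups the same probe read 7.90, 7.67, 8.39 and 8.68 in MM, against 7.78, 8.43, 8.56 and 8.04 in CC, again overlapping. That difference was -0.04 ± 0.28, or 0.971-fold (0.642 to 1.47). Probe 2 of Cyp2b2 gave 1.08-fold (0.839 to 1.38, adjusted p = 0.945) for M over C and 0.988-fold (0.770 to 1.27) for MM over CC. Its array means were 7.77 ± 0.27 in MM, 7.88 ± 0.36 in M, 7.79 ± 0.22 in CC and 7.77 ± 0.11 in C (SD, n = 4 each). Both probes thus placed the mean exposure effect near 1, at 1.18-fold (0.884 to 1.59) and 1.03-fold (0.864 to 1.23). As a log ratio, probe 1 differed by 0.52 ± 0.39 for M minus C (adjusted p = 0.569) and by -0.34 ± 0.39 for MM minus CC (adjusted p = 0.846). With the scanner software's own log ratio the M minus C value of probe 1 was -0.13.

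Cyp3a23-3a1, the PXR-inducible Cyp3a enzyme of rat liver whose promoter carries the marked repeat, had lower group means in exposed adults, without a call in liver signal. Its log2 liver signal was 11.31, 11.63, 11.55 and 11.61 in M, against 11.43, 11.97, 11.67 and 11.37 in C, and the M arrays fell within the C range apart from the lowest. In the cross-fostered groups it was 11.52, 11.13, 11.37 and 11.68 in MM, against 11.54, 11.62, 11.78 and 12.29 in CC. There MM replicate 4 lay above CC replicates 1 and 2, and the other MM arrays lay below all of CC. The liver differences were -0.09 ± 0.17 for M minus C (0.942-fold, 0.734 to 1.21, adjusted p = 0.956) and -0.38 ± 0.17 for MM minus CC (0.766-fold, 0.597 to 0.983, adjusted p = 0.712). Their mean was -0.24 ± 0.12, or 0.850-fold (0.712 to 1.01, adjusted p = 0.453).

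As a log ratio, the same probe fell in the mean exposure effect, by 0.46 on the log2 scale with an SE of 0.12 (0.726-fold, 0.605 to 0.870, adjusted p = 0.0263). The log ratios were 7.01, 6.41, 6.56 and 6.97 in MM, against 7.15, 7.34, 7.22 and 7.81 in CC, with no overlap (adjusted p = 0.107). They were 6.82, 7.08, 6.97 and 7.09 in M, against 7.12, 7.70, 7.22 and 7.03 in C, which overlapped (adjusted p = 0.470). The reference signal of this probe was never well above background and differed by 0.01 ± 0.02, so the level of the ratio is only a bound. Of the mean ratio difference of -0.46, the liver channel held -0.24, and the remainder of -0.22 arose between the loess-normalized ratio and the separately normalized channels. The call was lost without C replicate 10 (adjusted p = 0.0507), M replicate 5 (0.0532) or MM replicate 2 (0.0540), and also in the authors' deposited value table (-0.38, adjusted p = 0.0607), in the scanner software's ratio (-0.41, adjusted p = 0.247) and under median centring (-0.37, adjusted p = 0.205). Within the first slide row alone it was -0.50 (adjusted p = 0.106) and within the second -0.43 (adjusted p = 0.198), neither called.

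No other Cyp3a gene was called in liver signal or log ratio. Cyp3a2, the adult male form of rat liver, had a log2 liver signal of 13.55, 12.95, 13.95 and 14.23 in M, against 12.29, 13.64, 13.70 and 13.85 in C. C replicate 9 stood well below the other 3 C arrays. With it the M minus C difference was 0.30 ± 0.33 (adjusted p = 0.908), and without it -0.06 (adjusted p = 0.978). MM and CC averaged 13.7 ± 0.44 and 13.6 ± 0.26, a difference of 0.07 ± 0.33 (1.05-fold, 0.644 to 1.72). Cyp3a9, known as the form that predominates in female rats, lay between 8.57 and 10.09 in MM, 8.82 and 10.29 in M, 9.52 and 10.82 in CC, and 8.73 and 10.23 in C. Its mean exposure effect was -0.32 ± 0.29 (0.803-fold, 0.523 to 1.23, adjusted p = 0.758). Cyp3a18, a male-predominant form with 10 spots on the array, ranged from 11.21 to 12.02 in MM, 11.29 to 11.99 in M, 11.58 to 12.31 in CC, and 11.03 to 12.15 in C. The mean exposure effect of Cyp3a18 was -0.18 ± 0.19 in liver signal (adjusted p = 0.802) and -0.36 ± 0.15 as a log ratio (adjusted p = 0.171). Its log ratio averaged 6.72 ± 0.40 in MM and 7.23 ± 0.30 in CC (SD, n = 4 each), a difference of -0.51 ± 0.22 (SE, 0.704-fold, 0.510 to 0.971) with an adjusted p of 0.386 and overlapping arrays. With the scanner software's ratio the mean exposure effect of Cyp3a18 was called (-0.32, adjusted p = 0.0134).

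Por, the reductase that passes electrons from NADPH to every microsomal cytochrome P450, had the largest exposure differences of the members in log ratio. It was called in the log ratio and in the reference channel and not in liver signal. The log ratio was 1.08, 0.69, 1.28 and 2.03 in M, against 0.11, -0.01, 0.36 and 0.85 in C. M replicate 8 was highest, and the groups met where C replicate 12 exceeded M replicate 6. Por rose by 0.94 ± 0.25 (1.92-fold, 1.34 to 2.76, adjusted p = 0.0424), as 1 of 13 probes called for M minus C, where 4.18% of all probes (508) were, 1.56% as higher. In the fostered groups the ratio was 1.25, 1.51, 1.16 and 0.95 in MM, against 0.36, 0.52, 0.23 and 0.92 in CC, with no overlap. This difference of 0.71 ± 0.25 (1.64-fold, 1.14 to 2.35) was not called (adjusted p = 0.238), and 0 of 13 probes were for MM minus CC (1.02% of all probes, 124; 3 of 13 at an unadjusted p under 0.05, against 11.1%). Groups did not overlap in the log ratio for 2 of 13 probes in MM against CC, Por and Cyp3a23-3a1 (6.6% of all probes), and for 0 of 13 in M against C (11.1%). The mean exposure effect of Por was 0.83 ± 0.17 (1.77-fold, 1.37 to 2.29, adjusted p = 0.00707), so that 2 of 13 probes were called there, 1 higher and 1 lower (9.51% of all probes, 1155, with 3.75% higher and 5.77% lower). At an unadjusted p under 0.05 (limma), 1 of 13 probes passed in log ratio for M minus C, against 17.4% of all probes. For the mean exposure effect 4 of 13 did, against 22.8%.

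The channels of Por taken apart gave smaller liver differences. Log2 liver signal was 8.63, 8.34, 8.90 and 9.81 in M, against 8.12, 8.0, 8.37 and 8.84 in C, and only M replicates 7 and 8 exceeded all of C. It was 8.92, 9.19, 8.88 and 8.59 in MM, against 8.41, 8.49, 8.23 and 8.91 in CC, where CC replicate 4 reached into the MM range. The differences were 0.59 ± 0.27 (1.5-fold, 1.02 to 2.23, adjusted p = 0.591) and 0.38 ± 0.27 (1.30-fold, 0.881 to 1.93, adjusted p = 0.947), with a mean of 0.49 ± 0.19 (1.40-fold, 1.06 to 1.85, adjusted p = 0.279). In the reference RNA, Por read 9.18, 9.18, 9.16 and 9.13 on the MM arrays and 9.09, 9.19, 9.12 and 9.27 on the M arrays, against 9.57, 9.51, 9.52 and 9.50 on the CC arrays and 9.53, 9.55, 9.51 and 9.52 on the C arrays. The reference thus gave less Por signal on every array of the slide with M and MM, by -0.36 ± 0.02 in the mean exposure effect (adjusted p = 2.9e-09). Leaving out 1 array at a time kept the Por call in the mean exposure effect in 16 of 16 fits (0.70 to 0.92). For M minus C it was kept in 7 of 16 and lost without MM replicate 1, M replicates 5, 7 or 8, CC replicates 1 or 2, or C replicates 9, 10 or 11 (differences of 0.69 to 1.13 over all 16 fits, highest adjusted p 0.125).

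**Figure D2:**
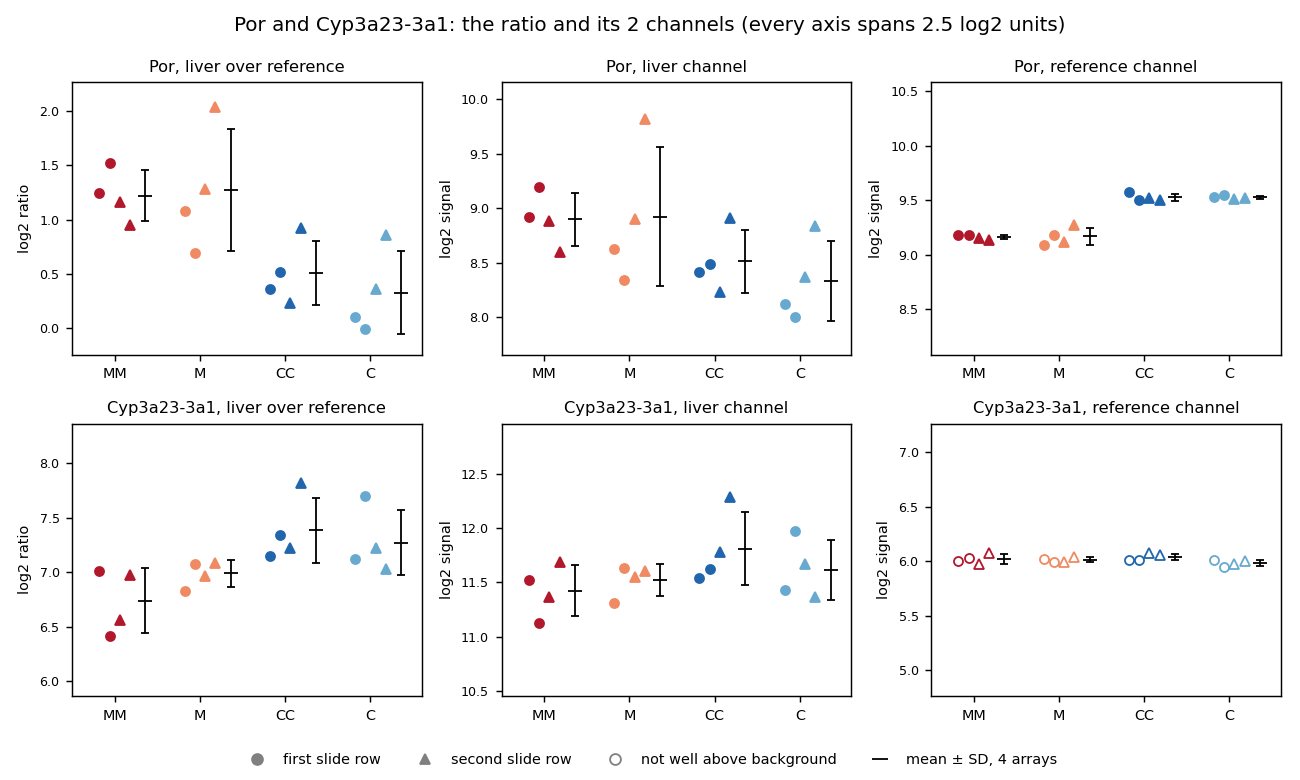
Log2 liver signal, log2 reference signal and log ratio of Por and Cyp3a23-3a1 on each array by group, with group means and SDs (circles and triangles for the slide rows, open where not well above background). The reference signal of Por lies near 9.1 to 9.3 on all M and MM arrays and near 9.5 on all C and CC arrays, whereas that of Cyp3a23-3a1 is flat and the liver signals overlap.

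Neither receptor was called in liver signal or log ratio. Nr1i2, which encodes PXR, averaged 11.1 ± 0.34 in MM, 11.2 ± 0.28 in M, 11.2 ± 0.33 in CC and 11.1 ± 0.12 in C in log2 liver signal. Its mean exposure effect was -0.01 ± 0.13 (0.993-fold, 0.820 to 1.20, adjusted p = 0.989). Nr1i3, which encodes CAR, had 7.38, 7.29, 7.64 and 7.60 at probe 1 in M, against 6.98, 8.23, 7.25 and 7.23 in C, with all 4 M arrays inside the C range. In the fostered groups it had 8.23, 7.07, 7.41 and 7.08 in MM, against 7.55, 7.78, 6.56 and 7.41 in CC, and again the groups overlapped. The mean exposure effect was 1.07-fold for probe 1 (0.774 to 1.47, adjusted p = 0.926) and 1.04-fold for probe 2 (0.838 to 1.29, adjusted p = 0.936), and probe 2 was not well above background on CC replicate 3. Both Nr1i3 probes moved together across arrays (Pearson correlation 0.94 over 16 arrays with group means removed).

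Among the transporters, Abcb1b, an isoform of the efflux pump P-glycoprotein, had lower liver group means in exposed rats at both probes. Neither probe was called in liver signal or log ratio. Probe 1 read 7.65, 7.22, 7.75 and 7.80 in M, against 7.77, 8.14, 7.81 and 8.16 in C, overlapping only through M replicate 8. It read 7.39, 7.31, 7.85 and 7.92 in MM, against 7.76, 7.89, 7.96 and 8.04 in CC. Its mean exposure effect was -0.33 ± 0.11 (0.795-fold, 0.675 to 0.937, adjusted p = 0.191), and with the slide row as a block the adjusted p was 0.0419. Probe 2 read 6.76, 6.76, 6.63 and 7.02 in MM, against 7.49, 7.40, 7.04 and 7.04 in CC. This was the 1 of 13 probes whose MM and CC arrays did not overlap in liver signal (4.24% of all probes), and for M against C there were 0 of 13 (4.97%). The MM minus CC difference was -0.45 ± 0.19 (0.732-fold, 0.552 to 0.970, adjusted p = 0.682). For M minus C, probe 2 differed by -0.21 ± 0.19 (adjusted p = 0.887). The probes did not track each other across arrays (Pearson correlation near 0), although both averaged lower in MM and M. In the mean exposure effect, probe 1 was at -0.28 and probe 2 at -0.23 in log ratio. Their reference signal was also lower there, by -0.05 and -0.10.

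Abcc2, the canalicular pump that exports conjugates into bile, had a log2 liver signal of 11.691, 11.942, 11.998 and 12.34 in M, against 11.565, 11.959, 11.823 and 11.955 in C, overlapping. In MM it was 12.083, 12.058, 12.239 and 12.205, against 11.996, 12.093, 11.869 and 11.775 in CC, where only CC replicate 2 reached the MM range. The mean exposure effect was 0.19 ± 0.09 in liver signal (1.14-fold, 1.00 to 1.30, adjusted p = 0.390) and -0.08 ± 0.08 as a log ratio (adjusted p = 0.596). The reference signal of Abcc2 was also higher on the M and MM arrays, by 0.17 ± 0.02 (adjusted p = 1.48e-06).

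In the reference channel, 3 of 13 probes were called for M minus C (48.1% of all probes), 4 for MM minus CC (45.1%) and 3 for the mean exposure effect (61.3%). Por was lower and Abcc2 higher in all 3 comparisons. Cyp2b2 probe 1 was higher in M minus C (0.10 ± 0.03, adjusted p = 0.0277), and Abcb1b probe 2 was lower in MM minus CC (-0.12 ± 0.04, adjusted p = 0.0194) and in the mean exposure effect (-0.10 ± 0.03, adjusted p = 0.00582). Abcb1b probe 1 was lower in MM minus CC (-0.09, adjusted p = 0.0371). These are differences between hybridisations of a single RNA, and their part in the log ratios of other probes was not tested.

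**Figure D3:**
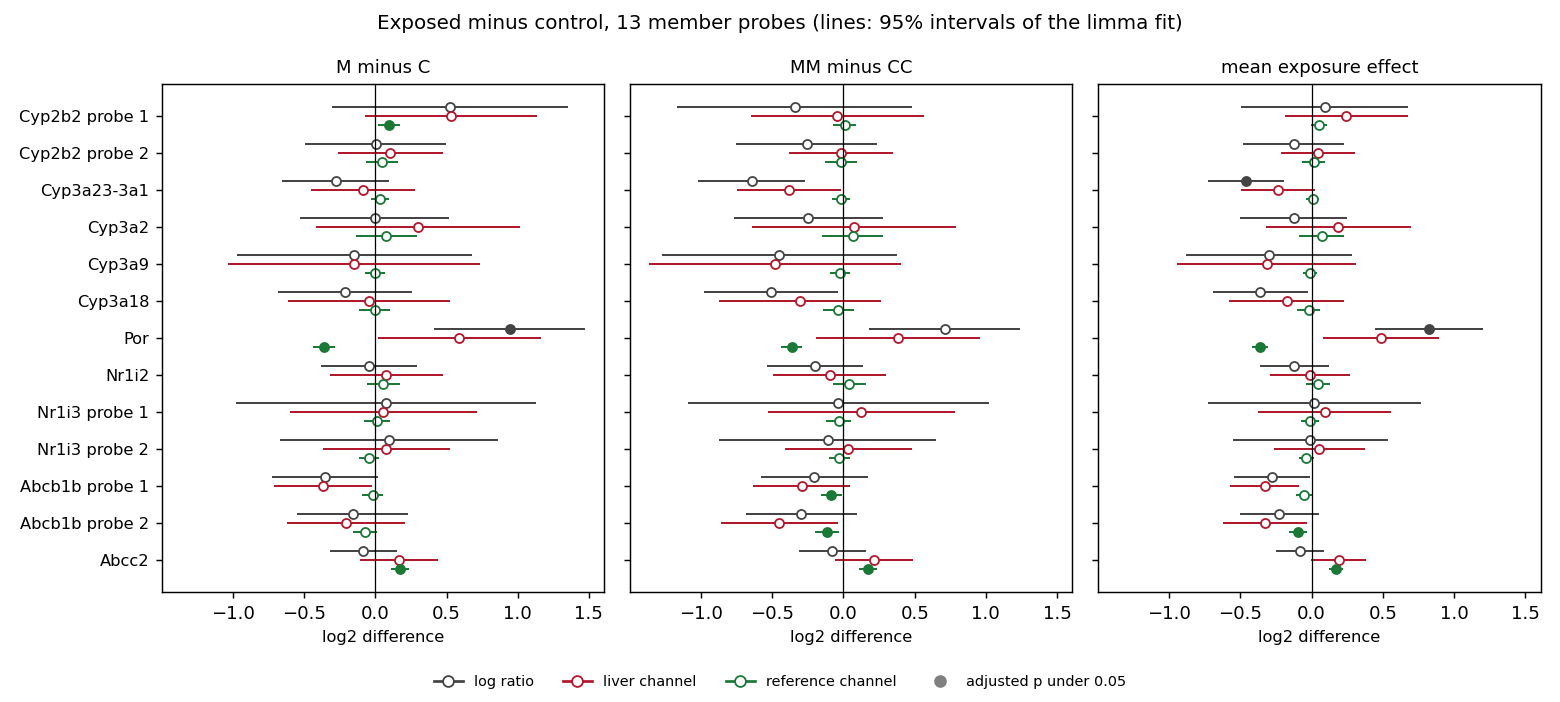
Log2 differences with 95% intervals for the 13 probes in M minus C, MM minus CC and the mean exposure effect (panels), in the log ratio, the liver channel and the reference channel (colours), filled where called. In the liver channel no probe was called. In the mean exposure effect of the log ratio Por lies above 0 and Cyp3a23-3a1 below 0, and in the reference channel Por lies at -0.36.

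Each slide held its arrays in 2 rows, with 2 arrays of each of its groups in every row. The exposure differences of several members had unlike signs in the rows. Cyp2b2 probe 1 differed in liver signal by -0.22 for M minus C in the first row (adjusted p = 0.702) and by 1.28 in the second (adjusted p = 0.541). Cyp3a9 differed by -1.02 and 0.72 for M minus C, and by -1.30 and 0.33 for MM minus CC. In liver signal 8 of 13 probes had opposite signs in the rows for M minus C, and 7 of 13 for MM minus CC and for the mean exposure effect. The share over all probes was not counted. With 2 arrays a group in each row, neither turned nor kept signs can be read as a trait of the members. Por kept a positive sign in both rows, at 0.43 and 0.75 for M minus C and 0.60 and 0.17 for MM minus CC. Abcc2, Cyp3a23-3a1, Cyp3a18 and both Abcb1b probes also kept their sign in the mean exposure effect. Levels differed between rows as well: averaged over 8 arrays a row, Cyp3a2 was -0.39 and Por -0.31 in the first row relative to the second, and Abcb1b probe 2 was 0.33.

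**Figure D4:**
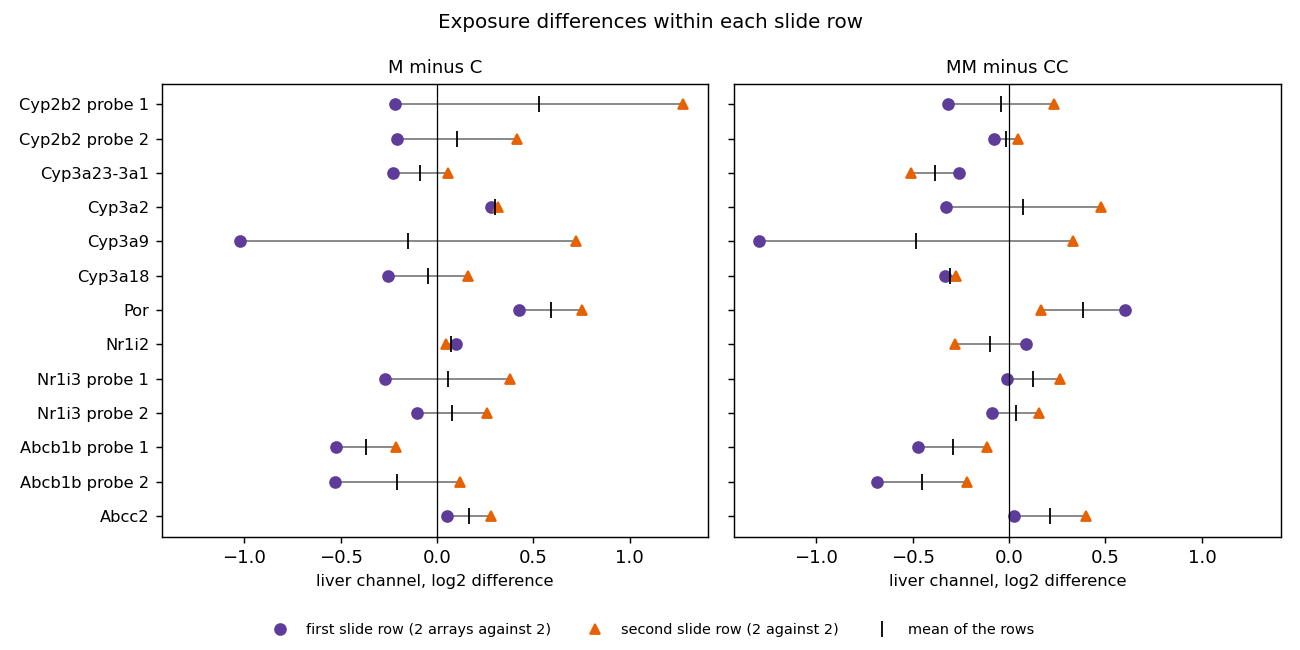
Exposure differences in log2 liver signal of each probe within the first and the second slide row, for M minus C and MM minus CC (2 arrays a group in each row, with a tick at the mean of the rows). Cyp2b2 probe 1 and Cyp3a9 lie on opposite sides of 0 in the rows, whereas Por lies above 0 in both.

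No member was called for cross-fostering. In CC minus C, MM minus M and the interaction of fostering with exposure, 0 of 13 probes were called in any channel, as were 0% of all probes. No member reached an unadjusted p under 0.05 (limma) in liver signal, against 0.75%, 1.38% and 1.52% of all probes, or in log ratio, against 0.931%, 1.78% and 1.65%. Liver differences ran from -0.10 to 0.42 for CC minus C (10 of 13 above 0) and from -0.41 to 0.15 for MM minus M (9 of 13 below 0). Cyp3a9 had the largest CC minus C value, 1.34-fold (0.728 to 2.45). Cyp2b2 probe 1 had the MM minus M value farthest from 0, 0.752-fold (0.497 to 1.14), and its interaction was -0.57 ± 0.40. No MM and M arrays, nor CC and C arrays, were without overlap for any of the 13 probes in liver signal or log ratio (0.881% to 1.06% of all probes).

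No other gene of the CAR and PXR programme was called in liver signal. Of 94 other genes of the pathway, 82 had a probe and 72 were tested; 0 were called in liver signal in any comparison, and 7 (9.72%) reached an unadjusted p under 0.05 in the mean exposure effect (limma; 12.5% of all probes), where 36 lay above 0 and 36 below. Among other Cyp2b and Cyp3a genes (2 tested, median 0.08), Cyp2b3 was at 0.10 ± 0.07 (adjusted p = 0.686) and Cyp3a62 at 0.06 ± 0.08 (0.852). Receptor partners, retention proteins and cofactors (11 tested, median -0.05) were led by Nr0b2, the repressor SHP, at 0.51 ± 0.47 (0.758), and by the chaperone Hsp90aa1 at 0.40 ± 0.18 (0.358). In electron transfer and haem supply (8 tested, median 0.00), the cytochrome b5 genes Cyb5a and Cyb5b were at 0.19 ± 0.06 (0.199) and -0.13 ± 0.09 (0.658). Other phase I targets (11 tested, median -0.08) were led by the retinal dehydrogenase Aldh1a1 at -0.59 ± 0.29 (0.430) and by Cyp2c12, a female-specific form in rats, at -0.39 ± 0.28 (0.657). Phase II targets (14 tested, median -0.04) included the sulfotransferase Sult1a1 at 0.25 ± 0.09 (0.227) and the glucuronosyltransferase Ugt2b10 at -0.19 ± 0.17 (0.758). Of the other transporters (10 tested, median -0.02), the bile salt pump Abcb11 was at 0.29 ± 0.27 (0.760) and the phospholipid flippase Abcb4 at -0.22 ± 0.11 (0.400). In the list of energy metabolism and growth genes (16 tested, median 0.11), Gadd45g was at 0.47 ± 0.29 (0.580) and the lipogenic gene Thrsp at 0.44 ± 0.20 (0.368). Each value in parentheses after a gene is its limma adjusted p. All probes had a median of -0.01 in this comparison. The reference RNA also differed there, by 0.34 for Hsp90aa1, 0.18 for Cyb5a, 0.45 for Sult1a1, 0.57 for Thrsp and 0.46 for Cyp2b3. Each was called, in the direction of its liver difference. Their log ratios, in that order, were 0.006, -0.03, -0.29, -0.24 and -0.40. Gadd45g was called in the reference the other way, at -0.26, and the other named genes were not called there. The part of these reference differences in the liver values was not tested.

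As log ratios, 7 of the 72 (9.72%) passed in the mean exposure effect, 1 higher and 6 lower, against 9.51% of all probes, and in M minus C only Cyp2c13 passed, a male-specific rat form (fell by 0.77, adjusted p = 0.0207). The 1 higher was Hmox1, which degrades haem, at 0.36 ± 0.10 (adjusted p = 0.0288), with 0.09 in liver signal and -0.25 in the reference. Cyp2c13 was lower, at -0.60 ± 0.13 (adjusted p = 0.00621), with -0.08 in liver and 0.46 in the reference, and Cyp2b3 was lower, at -0.40 ± 0.10 (adjusted p = 0.0145), with 0.10 in liver and 0.46 in the reference. The cochaperone Dnajc7, which holds CAR in the cytoplasm, was lower, at -0.37 ± 0.09 (adjusted p = 0.0152), with -0.09 in liver and 0.30 in the reference. For these 4 genes the reference difference was larger than the liver difference. G6pc1, the last enzyme of gluconeogenesis, was lower, at -0.37 ± 0.09 (adjusted p = 0.0207), with -0.41 in liver (adjusted p = 0.552) and -0.05 in the reference. The sulfotransferase Sult2a1 (-0.28 ± 0.09, adjusted p = 0.0482) and the bile acid uptake carrier Slc10a1 (-0.27 ± 0.07, adjusted p = 0.0184) had -0.13 and -0.04 in liver signal. In the reference they had -0.03 and 0.0007, so that most of the Slc10a1 ratio difference lay in neither separately normalized channel.

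All 5 erythroid markers with a probe lay below 0 in liver signal for M minus C, with a median of -0.68, Hbb-b1 at -1.01 (adjusted p = 0.252) and 0 of 5 called. Their summed signal ran from 48260 to 82810 in M, against 91730 to 118800 in C, and from 57490 to 158900 in MM, against 56970 to 107800 in CC. The summed hepatocyte marker signal ran from 803400 to 869000 in M, against 858500 to 881500 in C, and from 789500 to 864700 in MM, against 839000 to 885000 in CC. Their part in the member values was not tested.

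With group means removed, arrays with more Cyp2b2 signal at the brighter probe also had more Fnbp1 (Pearson correlation 0.82), Kxd1 (0.82), Dcaf11 (0.80) and Lamtor1 (0.80), the 4 most alike of 8312 probes with a symbol over 16 arrays. For Cyp3a23-3a1 these were Prpf19 (0.81), Tmem205 (0.80), Ech1 (0.79) and Aprt (0.79), and for Nr1i3 Cnn3 (0.89), Sh3bp5 (0.87), Gabarapl1 (0.86) and Sh3yl1 (0.83). Probes of the gene itself were left out of this search, and no other member was among those named. Among the members, Cyp3a18 ran with Nr1i3 (0.73 and 0.75 for its probes), Cyp3a2 with Abcc2 (0.71) and with Cyp3a18 (0.69), and the Cyp2b2 probes with each other (0.67). Next came Cyp3a2 with Nr1i3 probe 2 (0.63), Cyp2b2 probe 2 with Abcb1b probe 1 (0.60) and with Cyp3a23-3a1 (0.60), and Por with Nr1i2 (0.60). Arrays share a slide row and a labelling, so these values describe the arrays.

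**Figure D5:**
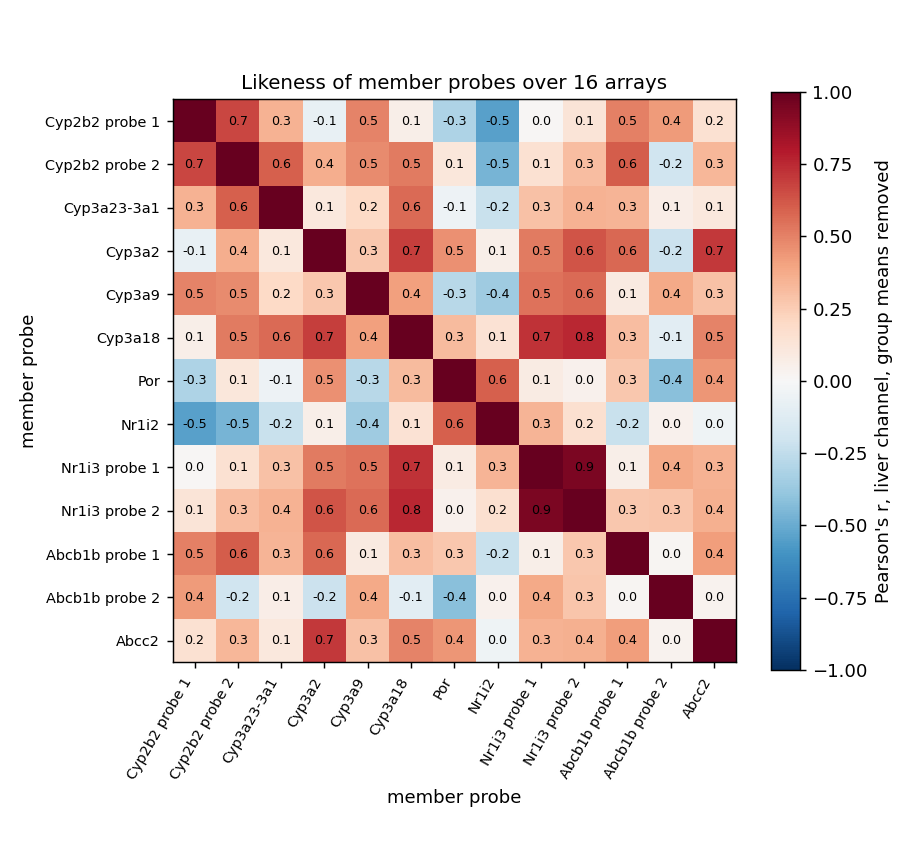
Pearson correlations between the 13 probes in log2 liver signal over 16 arrays with group means removed. The Nr1i3 pair stands out at 0.94 and the Cyp2b2 pair reaches 0.67, whereas the Abcb1b pair lies near 0.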

How the data were processed

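Per the file headers, the scanner files the authors deposited hold, for each dye, the median intensity of every spot and its local background (Agilent Feature Extraction 11.0.1.1, array design 028279), with a log10 ratio of processed red over green signal. The authors' deposited value table was taken as log2 liver over reference. It correlated at 0.989 to 0.995 with loess log ratios made without background subtraction, which cannot show the base of its logarithm. Its array medians were -0.038 to -0.027, and its centring is unknown. The sources used here do not give its processing. Per the labels' protocols, 200 ng of total RNA was labelled, Cy5 for liver and Cy3 for reference, with no dye swap.

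Intensities were background-corrected with normexp (offset 50). Log ratios were loess-normalized within arrays, and each channel was separately quantile-normalized between arrays. Flagged spots (732 to 1138 per array) were left out and spots of a probe averaged. No member spot was saturated. The tested probes had a liver signal well above background on 3 or 4 arrays of some group. Group means of 16 arrays were fitted in limma 3.58.1 (R 4.3.3, 12 residual degrees of freedom), with 6 contrasts in each of 3 channels. The planned mean spot signals were replaced by medians, which the files hold. The fit was tested on simulated data. The number of arrays and the signal over background limit the precision.

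The members and lists were chosen with earlier results of these data known. Every member probe is described. Of each pathway list, the 2 tested genes with the largest absolute mean exposure effect in liver signal were named. For likeness, the 4 most correlated probes with a symbol of another gene were named. The genes called in log ratio and the markers given were named after their values were seen. Accessions were matched to RefSeq symbols for 18005 probes, and probe coordinates were not used.

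CC and MM share replicate numbers 1 to 4. Same-numbered arrays correlated in their deviations at 0.543, 0.150, 0.580 and 0.192, which met the rule for pairing (every pair over 0.1). Same-numbered arrays also share a slide row. Differently numbered CC and MM arrays of the same row correlated at 0.445, 0.245, 0.340 and 0.159, and arrays of different rows at -0.567 to -0.0235. The rule therefore cannot tell pairing by number from a shared slide row. Alternatives covered the normalization, background correction, dim filter, probe choice, flagged spots, slide row, replicate block and leaving out each array. The surface trend and median centring were added after seeing the data.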

Additional observations from a re-analysis of the deposited data

Results flagged for a closer look

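In 3 of 104 sets of 4 arrays (a probe, a group and a measure), 1 array stood apart from the other 3 past Dixon's critical value (95%). Chance flags about 1 in 20 such sets. For Cyp3a2, C replicate 9 lay below the other C arrays, with a gap over range of 0.868 in liver signal and 0.919 in log ratio. Without it, M minus C was -0.06 in liver signal (adjusted p = 0.978) and -0.26 in log ratio (adjusted p = 0.592), and CC minus C was -0.15 and -0.14. For Nr1i3 probe 1, MM replicate 1 lay above the other MM arrays in log ratio (gap over range 0.882). Without it, MM minus M was -0.62 in log ratio (adjusted p = 0.997) and -0.29 in liver signal, and MM minus CC was -0.42 (adjusted p = 0.778) and -0.13.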

How the results depend on the processing

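The counts of called members in liver signal stayed at 0 in M minus C, MM minus CC and the mean exposure effect under every alternative run except the slide row block, which gave 1 in the mean exposure effect (Abcb1b probe 1). In log ratio, the mean exposure effect had 2 called members and gave 1 in the authors' deposited table, 0 within the second slide row, 1 under median centring and 1 to 2 when 1 array was left out (1 without C replicate 10, M replicate 5 or MM replicate 2). M minus C had 1 and gave 0 without the dim filter, 0 within the second row, 0 under median centring, and 0 to 1 when 1 array was left out. MM minus CC had 0 and gave 1 with the slide row block (Cyp3a23-3a1, adjusted p = 0.0494) and 1 within the first row (Por, 0.0424). In the reference channel, loess followed by Aquantile gave 6 for M minus C, 9 for MM minus CC and 10 for the mean exposure effect, against 3, 4 and 3. There MM minus CC gave 2 within the first row, 2 after removing the surface trend and 2 to 4 when 1 array was left out (2 without CC replicate 1 or 3 or MM replicate 3 or 4), and the mean exposure effect gave 3 to 5 (5 without MM replicate 1 or M replicate 6). Of 4294 member differences under alternatives, 4192 kept direction and side of the threshold, 21 lost a call, 5 gained one and 0 turned a called direction. Another 76 changed in some other way. The lost and gained calls in this tally were all in log ratio or liver signal, so the changes in the reference channel are not among them. The Cyp3a18 mean log ratio was called with the scanner software's ratio (-0.32, adjusted p = 0.0134), and that of Abcb1b probe 2 within the first row (-0.53, 0.0137), where that of Cyp3a23-3a1 was lost (-0.50, 0.106). The cause of these changes was not tested. The replicate block over the CC and MM arrays gave 0 called members in log ratio and liver signal for MM minus CC and 3 in the reference channel; Por was at 0.71 (adjusted p = 0.0883) and Cyp3a23-3a1 at -0.65 (0.0722) in log ratio, and the block changed no member's call in log ratio or liver signal. Low reference signal limits the ratios of Cyp3a23-3a1, Cyp2b2 and Nr1i3.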

Other observations

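Abcc2 and Cyp3a18 were each printed in 10 spots per array, which shows the error within an array. The SD of log2 liver signal over the spots of Abcc2 ran from 0.0873 (CC replicate 4) to 0.388 (CC replicate 1), and that of Cyp3a18 from 0.0811 (CC replicate 2) to 0.578 (MM replicate 3).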
